A study of Rattus norvegicus with 16 samples.

Results

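Heat shock proteins and the chaperones of the endoplasmic reticulum (ER) were followed in rat kidneys. The members were all probe sets whose only platform gene symbol begins with Hspa, Hspb, Hspd, Hspe, Hsph, Hsp90, Dnaj or Pdia, together with those of Calr, Canx, Hyou1 and Ddit3. They came to 34 of the 4736 genes that a probe set measured alone, and to 67 of 8740 probe sets. By the place where the protein works, 16 of these genes were taken as cytosolic, 13 as ER and 4 as mitochondrial, and Ddit3 is a transcription factor of the stress response. Hspa8, Hsp90aa1, Atf4 and Xbp1 had no probe set that carried their symbol alone and were not analysed here. After the 40% of probe sets with the lowest mean were left out, 58 member probe sets of 29 genes remained among 5244 tested, of which 13 genes were cytosolic, 11 ER and 4 mitochondrial. The genes left out for low signal were Dnajc17, Hspa1l, Hspa2, Hspa13 and Pdia2.

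Each of 8 rats gave both kidneys, and each kidney was hybridised to 1 array. The left kidney is labelled a control, and the right kidney was treated with ACTH in rats 1 and 5, with DEX in rats 3 and 7 and with saline in rats 2, 4, 6 and 8. ACTH is the pituitary hormone that drives steroid output from the adrenal cortex, and the labels do not spell DEX out. The labels used here give no strain, sex, age, dose, route or time, and the design text counts fewer saline rats than the sample titles, which were followed. No label names a genetic change, and each array holds whole-kidney RNA, in which fewer cells of a type and less RNA per cell cannot be told apart.

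Chaperones bind unfolded protein and help it to fold. Proteins of the Hspa class (the Hsp70 family) do this in cycles driven by ATP, DnaJ proteins (the Hsp40 family) hand them their substrates, and the Hsp90 class finishes signalling proteins, steroid receptors among them. Unfolded protein in the cytosol releases heat shock factors, which bind heat shock elements in promoters, whereas unfolded protein in the ER lumen activates sensors in its membrane whose products bind ER stress elements and raise ER chaperones. Kidney tubules express both sets, and the small heat shock proteins are also found in vascular smooth muscle.

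These elements were looked for on both strands of RefSeq promoters (assembly GRCr8, 250 bases before to 50 after the start of each gene), and 29 of the 34 member genes were searched. The ER stress element, CCAAT and CCACG with 9 bases of any kind between them, was in 0.0657% of all 33469 promoters and in 3 of 10 ER members, Hspa5, Hsp90b1 and Calr, and in 0 of 14 cytosolic members. The heat shock element, GAA, TTC and GAA in a row with 2 bases of any kind between each, was in 0.798% of all promoters. It was in 2 of 14 cytosolic members, Dnaja1 and Hsph1, in 2 of 4 mitochondrial members, Hspd1 and Hspe1, and in 0 of 10 ER members. The unfolded protein response element, TGACGTGG, was in 0.595% of all promoters and in that of Hyou1, and the glucocorticoid response element, AGAACA and TGTTCT with 3 bases of any kind between them, was in 0.0149% and in 0 of the 29. The heat shock and ER stress elements are those through which chaperone genes are raised, as described above, so matches in these members are not independent findings. Windows of 30 bases around the matches are shown so that the letters behind these counts can be read, and no difference between the compartments was tested. Each is written along the strand of its gene with the match in capitals, and a match is a description of the letters, not a bound site.
Hspa5 (chr3:38452967-38452996, plus strand): agttcaCCAATCGGAGGCCTCCACGacggg
Hsp90b1, farther match (chr7:23012446-23012475, minus strand): acaaacCCAATCGAAAGGAGCCACGcttcg
Hsp90b1, nearer match (chr7:23012342-23012371, minus strand): agagtgCGTGGTGAGGCACGATTGGtgggt
Calr (chr19:40213129-40213158, plus strand): acaacgCGTGGTCGACCCTGATTGGcccag
Hyou1 (chr8:53602680-53602709, plus strand): gccgcgaaccgTGACGTGGgccaatccgca
Dnaja1 (chr5:60638404-60638433, plus strand): ggccgggcgGAACTTTCCAGAAcgctcggt
Hsph1 (chr12:10427323-10427352, plus strand): tgccgcagaTTCTGGAAAGTTCtcctcagt
Hspe1 (chr9:64084256-64084285, plus strand): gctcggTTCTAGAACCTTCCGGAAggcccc
In Hspa5 the match lies 43 to 25 bases before the start of the gene, and in Calr it lies over 200 bases before it. In Dnaja1 the match starts 10 bases after the start. Hspd1 and Hspe1 face away from each other, and the window printed for Hspe1 is the same stretch of DNA as the one that holds the match of Hspd1.

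The median signal of the 16 arrays lay between 76.0 and 82.1 on the linear scale of the deposited values, and 7 proximal tubule marker genes that were tested were bright in every array (mean log2 score 10.74 to 11.11), as kidney tissue would be. Rats 1 to 4 and rats 5 to 8 form separate clusters in both kidneys, which no label names, and each cluster holds 1 ACTH rat, 1 DEX rat and 2 saline rats. In the left kidneys the clusters did not overlap for 35.8% of all tested probe sets and for 14 of the 58 member probe sets. The mitochondrial Hspe1, the co-chaperonin that caps Hspd1, was one of them, at 1093 to 1362 in the left kidneys of rats 1 to 4 and at 598 to 719.5 in those of rats 5 to 8. The effects below are differences within rats, so a level that a rat shares between its kidneys drops out of them. For each rat the change is log2(signal + 16) in the right kidney less that in the left, and a treatment's effect is the mean change of its rats less that of the saline rats. The ACTH and DEX effects are taken against the same 4 saline rats and are therefore not independent of each other.

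At an adjusted p under 0.05 (limma, Benjamini-Hochberg over 5244 probe sets), no member changed with ACTH against saline, where 0.496% of all probe sets passed, and none with DEX against saline, where 0% passed. At an unadjusted p under 0.05 the ACTH effect held 7 of 58 member probe sets against 9.44% of all, and the DEX effect held 4 against 2.94%. In the direct comparison of the treatments 1 member probe set passed, for Dnaja1, against 0.572% of all, and at an unadjusted p under 0.05 there were 20 of 58 members, against 12.2% of all. Of these 17 were lower with ACTH, against 8.22% of all. The right kidneys of the ACTH rats differed from their left ones in 2 member probe sets, both for Dnaja1, where 3.57% of all passed. At an unadjusted p under 0.05 that comparison held 15 of 58 members against 18.4% of all. Within saline rats it called 0 members, with 0 at an unadjusted p under 0.05 against 3.74% of all, and within DEX rats it called 0, with 9 unadjusted against 5.91%, and 0% of all probe sets passed in each. The member calls depended on single rats, and the number of calls over all tested probe sets moved too when 1 rat was left out. Without saline rat 4, 0 member probe sets passed for ACTH against DEX. Without each saline rat in turn, 1 passed within the ACTH rats. Leaving out an ACTH or DEX rat leaves 1 rat in its group, so no counts are given here for those fits. These counts come from limma, and no other tool was run.

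A count that needs no model asks how often both treated rats changed by more than all 4 saline rats in 1 direction. With ACTH this held for 11 of 58 member probe sets, 5 higher and 6 lower, against 15.7% of all tested (7.82% higher, 7.84% lower). With DEX it held for 10 of 58, 8 higher and 2 lower, against 12.4% of all tested (6.08% higher, 6.33% lower).

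Signs were less evenly split among the members than among all probe sets. The DEX effect was above 0 for 47 of 58 member probe sets (22 of 29 genes) and for 49.5% of all tested, whereas the ACTH effect was above 0 for 21 of 58 (10 of 29 genes) and for 49.9% of all tested. ACTH against DEX was above 0 for 12 of 58 members and for 53% of all tested. With each gene taken at its brightest probe set, the 11 ER genes had a median ACTH effect of -0.16 (9 lower, 2 higher) and a median DEX effect of 0.21 (9 higher, 2 lower). The 13 cytosolic genes had medians of -0.16 (8 lower, 5 higher) and 0.20 (8 higher, 5 lower). The medians over all tested probe sets were within 0.01 of 0 in both. None of these counts has a test of its own, and the members share rats.

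**Figure D1:**
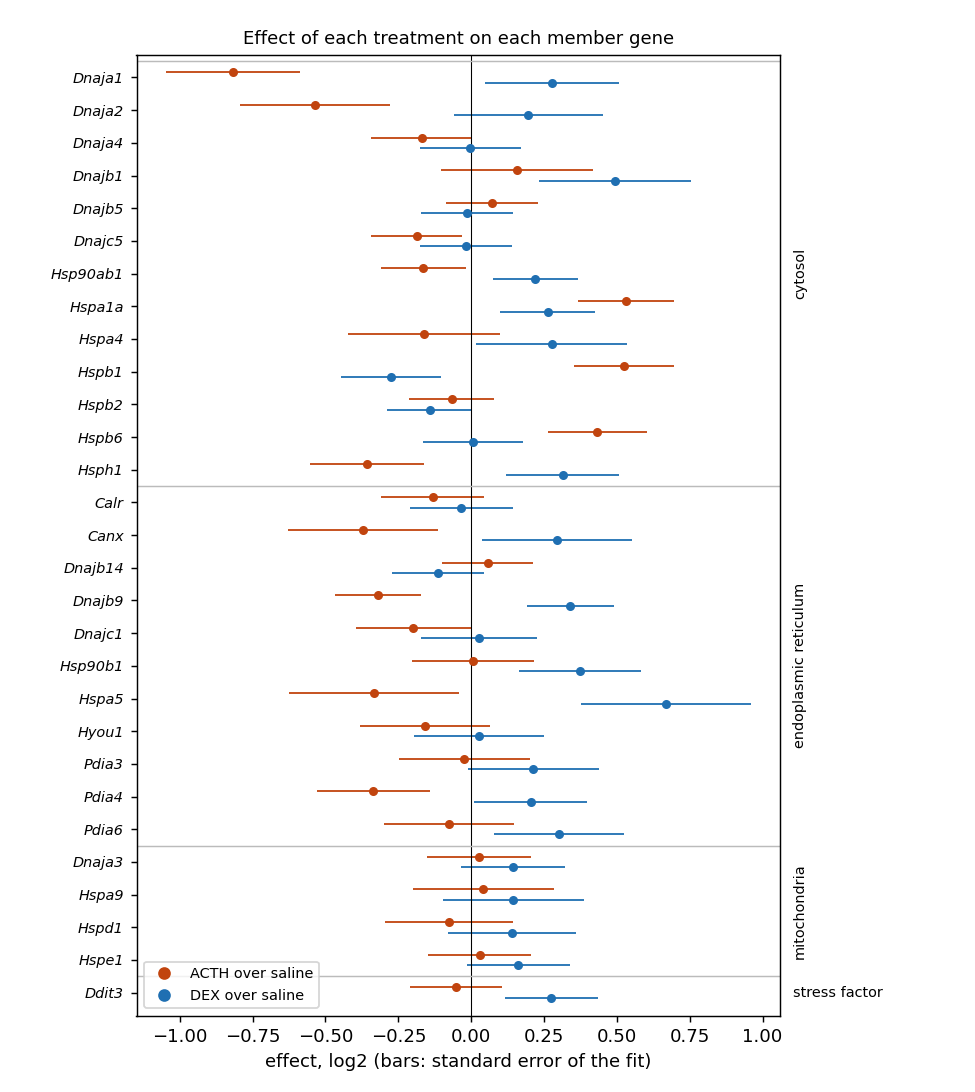
Effect of ACTH (red) and of DEX (blue) against saline on each of the 29 tested member genes at its brightest probe set, in log2 units, with bars for the standard error of the fit, grouped by the place where the protein works. In the ER block 9 of 11 genes lie left of 0 for ACTH and 9 of 11 lie right of 0 for DEX, and the ACTH effect of Dnaja1, at -0.82, is the lowest of all.

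The rats behind these medians did not move alike. The median right minus left change of the ER genes was -0.25 and -0.36 in the ACTH rats 1 and 5, and 0.25 and -0.06 in the DEX rats 3 and 7. In the saline rats 2, 4, 6 and 8 it was -0.05, 0.04, 0.00 and -0.17. By this median both ACTH rats lay below every saline rat, while of the DEX rats only rat 3 lay above them. By the mean change of the same genes, ACTH rat 1 (-0.20) lay above saline rat 8 (-0.28), and ACTH rat 5 was at -0.30. For the cytosolic genes the medians were 0.01 and -0.08 with ACTH, 0.12 and -0.02 with DEX, and 0.04, 0.03, 0.16 and -0.13 with saline, so that all groups overlapped. Without rat 3 the median DEX effect of the ER genes was 0.041 and that of the cytosolic genes 0.0073. Without rat 5 the median ACTH effect of the cytosolic genes was -0.0082, and without rat 6 that of the ER genes was -0.063, against -0.28 without rat 1 and -0.26 without rat 2. The median DEX effect of the ER genes was 0.38 without rat 7, 0.33 without rat 2 and 0.14 without rat 8, and that of the cytosolic genes 0.077 without rat 8.

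**Figure D2:**
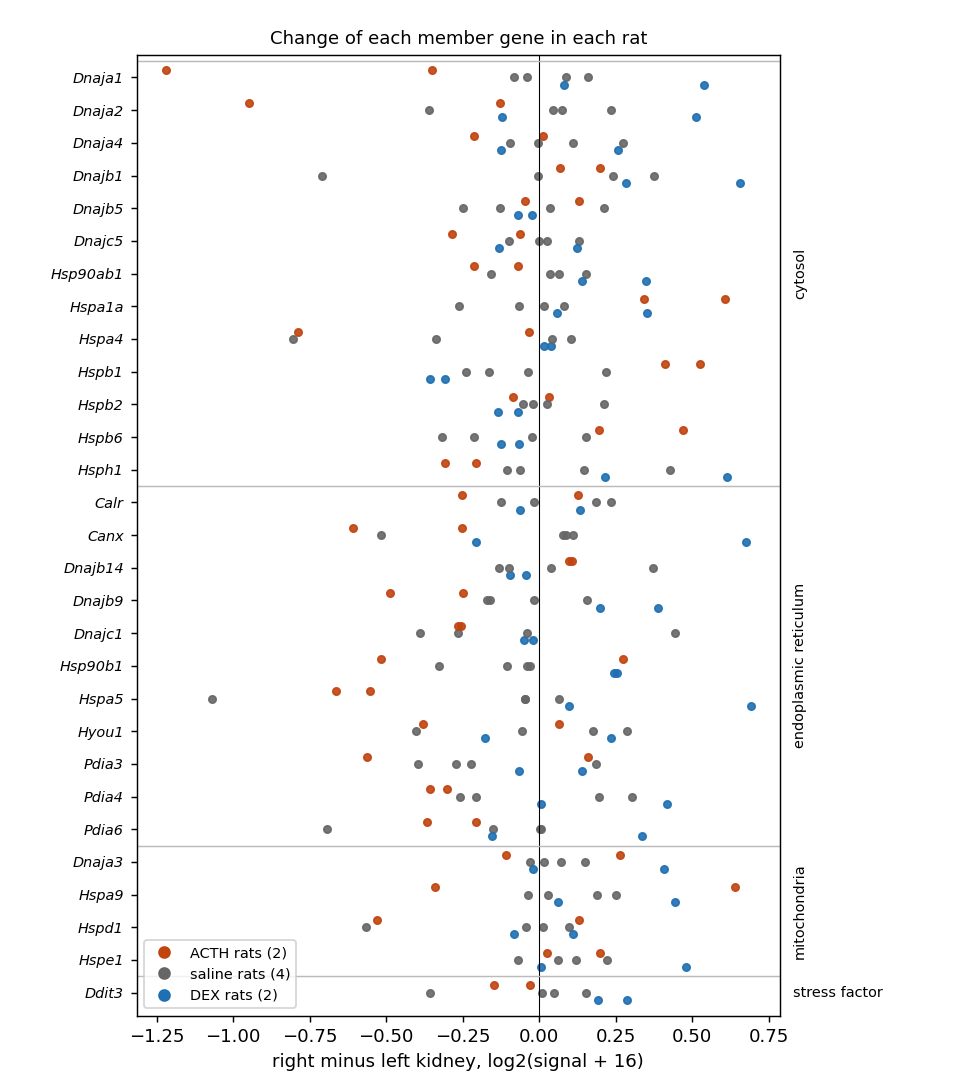
Right minus left kidney change of log2(signal + 16) for each tested member gene, with 1 point for each rat (2 ACTH rats, 4 saline rats, 2 DEX rats). Both ACTH rats lie below all saline rats for Dnaja1, Hsph1, Dnajb9 and Pdia4 and above them for Hspa1a, Hspb1 and Hspb6.

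The level of each kidney shows what the changes are made of. The mean log2(signal + 16) of the 11 ER genes was lowest among the 8 left kidneys in DEX rat 3, at 8.15, against 8.23 to 8.53 in the others. In the right kidneys it was 8.44 and 8.31 with DEX, 8.32 and 8.02 with ACTH, and 8.01 to 8.46 with saline, so both treated groups lay within the saline range. The cytosolic genes were also lowest in the left kidney of rat 3, at 8.07 against 8.16 or more in the others. Fitted on right kidneys alone, the median DEX effect was 0.12 for ER genes and 0.065 for cytosolic genes.

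**Figure D3:**
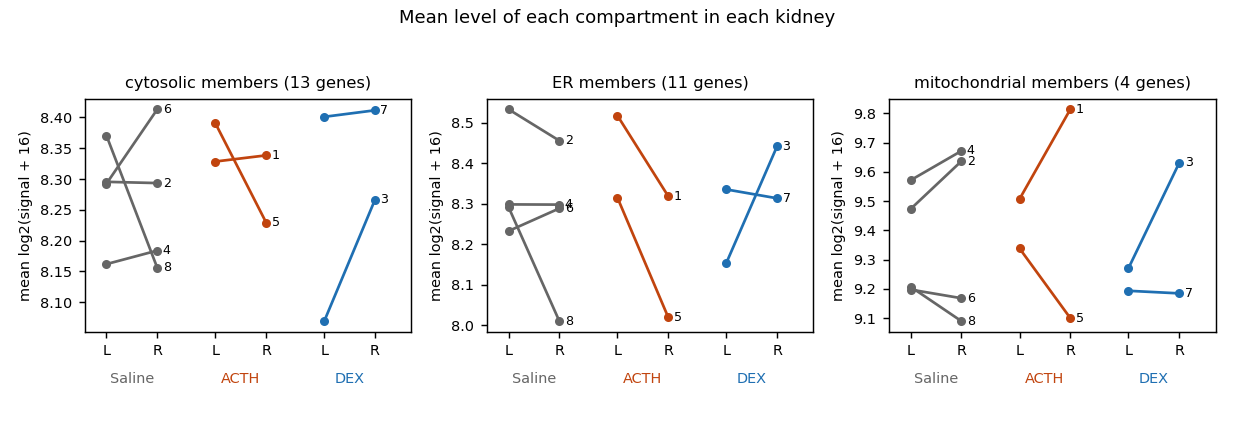
Mean log2(signal + 16) of the cytosolic, ER and mitochondrial member genes in the left and right kidney of each rat, joined by a line. The left kidney of DEX rat 3 is the lowest left kidney for the ER genes (8.15) and for the cytosolic genes (8.07), and the mitochondrial level of the right kidneys is 9.63 to 9.81 in rats 1 to 4 and 9.09 to 9.18 in rats 5 to 8.

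Among the cytosolic DnaJ proteins, Dnaja1, a partner of Hsp70 that also helps to load steroid receptors, gave the only calls. Its less bright probe set went from 239 in the left to 167 in the right kidney of ACTH rat 1 and from 95.2 to 49.5 in ACTH rat 5. In the DEX rats it went from 209 to 329 in rat 3 and from 133 to 175 in rat 7, and in the saline rats from 248 to 271, 206 to 239, 109.6 to 99.8 and 111 to 133. Both ACTH rats had a lower right kidney and both DEX rats a higher one, and their changes did not overlap with those of the saline rats on either side, whereas the levels themselves overlapped.

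In this probe set Dnaja1 was lower with ACTH than with DEX by an effect of -1.10 ± 0.19 (SE; a ratio of 0.47; adjusted p = 0.0325, limma; 2 rats against 2). It fell in the right kidney of the ACTH rats by 0.62 ± 0.13 (SE, adjusted p = 0.0292, limma). Against saline, the ACTH effect was -0.73 ± 0.16 (adjusted p = 0.081, limma) and the DEX effect 0.38 ± 0.16 (adjusted p = 0.999, limma), neither of which passed. Without saline rat 4 the ACTH against DEX call was lost (adjusted p = 0.0527, limma). It was lost too without rat 3, 5 or 7, each of which leaves 1 rat in its group. The values were then -1.23 (without rat 7) to -0.96 (without rat 5). Within rats 1 to 4 the value was -1.09 and within rats 5 to 8 it was -1.12.

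The brighter Dnaja1 probe set went from 855 to 667 and from 733 to 305 in the ACTH rats, from 543 to 795 and from 746 to 791 in the DEX rats, and from 822 to 800.0, 755 to 804, 646 to 723 and 749.6 to 708 in the saline rats. The right kidney of rat 5 was the lowest of the 16 arrays, and DEX rat 3 started from the lowest left kidney. ACTH against DEX came to -1.10 ± 0.27 here too, with adjusted p = 0.108 (limma). The fall in the ACTH rats was 0.79 ± 0.19 (SE, adjusted p = 0.0411, limma). That call was lost without any single saline or DEX rat, at -0.79 each time. With 1 ACTH rat left, the value was -1.22 without rat 1 and -0.35 without rat 5. The second probe set kept its call in the ACTH rats without each saline or DEX rat, and was at -0.48 without rat 5. Against saline, the ACTH effect of the brighter probe set was -1.25 without rat 1 and -0.38 without rat 5. Its ACTH against DEX value was -1.53 without rat 1 and -0.66 without rat 5. Its DEX effect of 0.28 was 0.050 without rat 3 and 0.51 without rat 7.

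**Figure D4:**
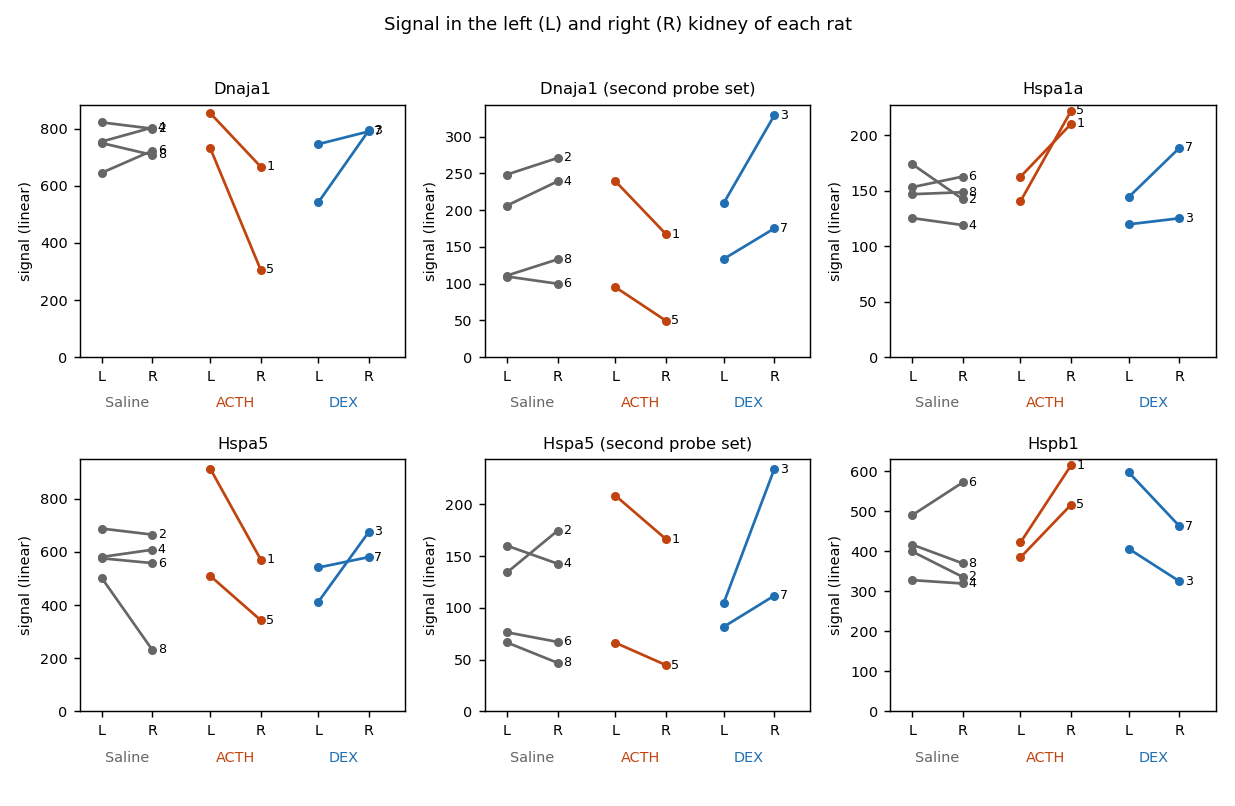
Linear signal in the left (L) and right (R) kidney of every rat for selected member probe sets, with a line joining the kidneys of each rat and axes that start at 0. Both ACTH rats go down for Dnaja1, while Hspa5 goes up in both DEX rats, in rat 3 from 413 to 676, and falls furthest on this linear scale in ACTH rat 1, from 914 to 571.

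Dnaja2, the close relative of Dnaja1, had ACTH effects of -0.54, -0.63 and -0.41 in its 3 probe sets and DEX effects of 0.20, 0.06 and 0.42, of which none passed. Its brightest probe set went from 460.1 to 419 and from 395 to 197 in the ACTH rats and reached 230.2 in the right kidney of saline rat 8, and the change of rat 1 lay among those of the saline rats. Dnajb1, the DnaJ protein most tied to the heat shock response, had an ACTH effect of 0.16 ± 0.26 and a DEX effect of 0.49 ± 0.26. It went from 305 to 320.0 and from 366 to 423 in the ACTH rats, from 184 to 298 and from 292 to 359 in the DEX rats, and from 265 to 315, 239.7 to 239, 314 to 412 and 308 to 182 in the saline rats. All groups overlapped in their changes, and saline rat 8 fell furthest. Without rat 8 its ACTH effect was -0.070 and its DEX effect 0.27, and without rat 3 its DEX effect was 0.31. Its second probe set had effects of 0.23 and 0.30. The effects of Dnaja4, Dnajb5 and Dnajc5 (which acts at secretory vesicles) at their brightest probe sets lay between -0.19 and 0.07.

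Of the inducible Hsp70 genes, Hspa1a was measured by 1 probe set with that symbol alone, and its near-identical neighbour Hspa1b may share its signal. It went from 162 to 210.0 and from 140.3 to 222 in the ACTH rats, from 119.6 to 125 and from 144 to 188 in the DEX rats, and from 174 to 142, 125 to 119, 153 to 163 and 147 to 148 in the saline rats. Both ACTH rats changed by more than every saline rat. The ACTH effect was 0.53 ± 0.16 (a ratio of 1.45; adjusted p = 0.244, limma), which did not pass, and the DEX effect was 0.26 ± 0.16 (0.12 without rat 7 and 0.41 without rat 3). Hsph1, which exchanges the nucleotide of Hsp70, went from 499 to 400.5 and from 512 to 442 with ACTH, from 298 to 464 and from 579 to 675 with DEX, and from 464 to 444, 302 to 336.5, 502 to 680.4 and 598 to 555 with saline. Its ACTH effect was -0.36 ± 0.19 and its DEX effect 0.31 ± 0.19 (adjusted p = 0.601 and 0.999, limma), and the changes of both ACTH rats lay below all saline rats. The DEX effect was 0.11 without rat 3 and 0.51 without rat 7. Hspa4, of the same class, had effects of -0.16 and 0.28.

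The cytosolic Hsp90 gene on the array, Hsp90ab1, was the brightest member, at 1868 to 2795 in its brightest probe set. Its ACTH effect there was -0.16 ± 0.15 and its DEX effect 0.22 ± 0.15. Over its 4 probe sets the ACTH effects ran from -0.21 to 0.18, on both sides of 0, and the DEX effects from 0.06 to 0.49.

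The small heat shock proteins hold unfolded protein without ATP. At the brightest probe set of each, Hspb1 and Hspb6 had an ACTH effect above 0 and Hspb2 below 0, and none passed. Hspb1, which also binds actin, went from 422 to 614 and from 384 to 516 in the ACTH rats, from 406 to 325 and from 596 to 462 in the DEX rats, and from 399 to 336, 328 to 319, 489.7 to 572 and 416 to 369.5 in the saline rats. Its changes in the ACTH rats lay above those of all saline rats and in the DEX rats below them. The ACTH effect was 0.52 ± 0.17 and ACTH against DEX 0.80 ± 0.20 (adjusted p = 0.299 and 0.110, limma), so neither passed. The least bright probe set of Hspb1 had an ACTH effect of 0.02, against 0.27 to 0.52 in the others. Hspb6, a small heat shock protein of muscle, went from 144 to 167 and from 206 to 292 with ACTH, an effect of 0.43 ± 0.17 (adjusted p = 0.428, limma), and had a DEX effect of 0.01. Hspb2 had effects of -0.067 and -0.14, and -0.012 and 0.049 in its second probe set.

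In the ER lumen, Hspa5 (BiP) binds unfolded protein and holds the stress sensors inactive, and it carries the ER stress element nearest to its start among the windows shown. Its brighter probe set went from 914 to 571 and from 509.9 to 343 in the ACTH rats, from 413 to 676 and from 541 to 581 in the DEX rats, and from 688 to 665, 581 to 608, 576 to 558 and 502 to 231 in the saline rats. The changes of the DEX rats lay above those of all saline rats, those of the ACTH rats did not lie apart from them, and the right kidney of DEX rat 7 lay within the range of the saline right kidneys, while that of rat 3 lay above their maximum of 665. The DEX effect was 0.67 ± 0.29 (a ratio of 1.59) and the ACTH effect -0.33 ± 0.29 (adjusted p = 0.999 and 0.822, limma). The DEX effect was 0.37 without rat 3 and 0.40 without rat 8, and the ACTH effect was -0.60 without rat 8 and -0.22 without rat 4.

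The second probe set of Hspa5 went from 208 to 166 and from 66.3 to 44.7 with ACTH, from 104 to 234 and from 81.6 to 112 with DEX, and from 134 to 174, 160.0 to 143, 76.3 to 67.1 and 66.5 to 46.9 with saline. Its DEX effect was 0.81 ± 0.22, the lowest unadjusted p of any member for DEX (0.00291, limma) but adjusted p = 0.999, and it was 0.48 without rat 3. Its ACTH effect was -0.28, and -0.14 without rat 2. ACTH against DEX was -1.0 ± 0.34 and -1.09 ± 0.25 in the brighter and second probe sets (adjusted p = 0.254 and 0.0849, limma), which did not pass.

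Dnajb9, a DnaJ partner of Hspa5 that is raised by ER stress, went from 114 to 93.2 and from 46.4 to 28.6 in the ACTH rats, from 68.7 to 94.8 and from 44.8 to 53.7 in the DEX rats, and from 96.1 to 94.7, 94.4 to 107, 44.9 to 38.4 and 45.1 to 38.3 in the saline rats. Its changes in the ACTH rats lay below and in the DEX rats above those of every saline rat. The effects were -0.32 ± 0.15 and 0.34 ± 0.15, and ACTH against DEX was -0.66 ± 0.17 (adjusted p = 0.522, 0.999 and 0.127, limma), and the ACTH effect was -0.20 without rat 5. Dnajb14 and Dnajc1, which sit in the ER membrane, had effects between -0.20 and 0.06.

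Hsp90b1, the Hsp90 of the ER, had DEX effects of 0.37, 0.44 and 0.48 in its 3 probe sets and ACTH effects of 0.00, -0.17 and -0.38. Its brightest probe set went from 731 to 888 and from 803 to 557 in the ACTH rats, in opposite directions, and from 750.0 to 898 and from 681 to 809 in the DEX rats, both above the changes of the saline rats, which went from 909 to 844, 817 to 794, 899 to 714 and 910.2 to 891. The DEX effect was 0.37 ± 0.21 (adjusted p = 0.999, limma). Hyou1, an Hsp70 relative of the ER, had effects of -0.16 and 0.027, and 0.022 and 0.088 in its second probe set.

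The lectin chaperones Canx and Calr, which retain glycoproteins until they are folded, had ACTH effects below 0 in all of their probe sets, of which none passed. The 5 probe sets of Canx had ACTH effects of -0.54 to -0.21 and DEX effects of 0.21 to 0.33, which did not pass either. Its brightest went from 1067 to 892 and from 779 to 505 with ACTH, from 525 to 848 and from 970.2 to 839 with DEX, and from 953 to 1008, 659 to 713, 721 to 768 and 889.6 to 617 with saline. The DEX rats went in opposite directions, and without rat 3 the DEX effect was -0.15. The brightest probe set of Calr went from 1252 to 1047 and from 952 to 1042 with ACTH and from 1044 to 1148 and from 949 to 909 with DEX, while its saline rats went from 1087 to 1237, 1114 to 1101, 931 to 852 and 896 to 1058. Its effects there were -0.13 ± 0.18 and -0.034 ± 0.18, and the changes of the groups overlapped. Over the 3 probe sets of Calr the ACTH effects ran from -0.18 to -0.081 and the DEX effects from -0.034 to 0.31, so that its highest DEX effect lies in the range of Canx.

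The protein disulphide isomerases Pdia3, Pdia4 and Pdia6, which form and exchange disulphide bonds, had ACTH effects of -0.02, -0.34 and -0.08 and DEX effects of 0.21, 0.20 and 0.30. For Pdia6 the saline rats changed by -0.21 on average, down to -0.69 in 1 rat, so part of its DEX effect is their fall. Its right kidneys were at 559.5 and 625.4 with DEX and at 354 to 695 with saline. Pdia4 went from 166 to 132 and from 179 to 136 in the ACTH rats, from 124 to 171 and from 200.8 to 201.5 in the DEX rats, and from 171 to 146, 112.5 to 131, 149 to 187 and 152 to 125 in the saline rats. Both ACTH rats changed downwards by more than every saline rat. Its ACTH effect was -0.34 ± 0.19 (adjusted p = 0.64, limma). Pdia3 went from 410.3 to 461 and from 587 to 393 with ACTH, from 477 to 527 and from 594 to 567 with DEX, and from 445 to 508, 559 to 459.8, 557 to 475 and 556 to 419 with saline, so all groups overlapped. Its second probe set had effects of -1.27 and -0.72, where saline rat 8 read 1436 in the right kidney and the other saline rats 44.9 to 54.9.

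Ddit3 (CHOP), the transcription factor induced late in ER stress, went from 91.4 to 89.1 and from 99.5 to 88.3 with ACTH, from 57.2 to 73.4 and from 89.7 to 105 with DEX, and from 83.5 to 84.2, 70.3 to 73.2, 100.4 to 114 and 107 to 79.8 with saline. The changes of both DEX rats lay above all saline rats, at an effect of 0.28 ± 0.16 (adjusted p = 0.999, limma), and the ACTH effect was -0.05 ± 0.16. The right kidneys with DEX lay within the range of the saline right kidneys, and rat 3 started from the lowest left kidney. Fitted on right kidneys alone, the DEX effect was 0.018.

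The 4 mitochondrial chaperones had ACTH effects of -0.076 to 0.042 and DEX effects of 0.14 to 0.16 at their brightest probe sets. Hspd1, the chaperonin, went from 2156 to 2359 and from 1944 to 1341 with ACTH, from 1821 to 1966 and from 1734 to 1638 with DEX, and from 1948 to 2085, 2045 to 2064, 1823 to 1767 and 1867 to 1257 with saline. Its effects were -0.076 ± 0.22 and 0.14 ± 0.22, and -0.18 and 0.34 in its second probe set. Hspa9, the mitochondrial Hsp70, went from 289.9 to 460.3 and from 371 to 290.0 with ACTH, from 266 to 367 and from 346 to 361 with DEX, and from 326 to 374, 317 to 380.1, 354 to 361 and 372.5 to 362 with saline. The ACTH rats thus went in opposite directions, on either side of all saline rats, and the effects were 0.042 and 0.14. Its second tested probe set had effects of 0.042 and 0.42.

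Hspe1 went from 1303 to 1496 and from 702 to 715.5 with ACTH, from 1093 to 1532 and from 719.5 to 723 with DEX, and from 1174 to 1371, 1362 to 1482, 598 to 568 and 607 to 634 with saline. Dnaja3, a mitochondrial DnaJ protein, went from 304 to 368 and from 306 to 282 with ACTH, from 237 to 320.2 and from 236 to 233 with DEX, and from 303 to 338, 339 to 343, 269 to 263 and 252 to 265 with saline. Their ACTH effects were 0.029 and 0.026 and their DEX effects 0.16 and 0.14. In rats 1 to 4 all 4 genes had a higher right kidney whatever the treatment, and in rats 5 to 8 this held for 1, 1, 2 and 2 of 4.

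Other genes of these pathways were taken from lists that left the members out. Of the cytosolic list 14 genes were tested, with the ACTH effect above 0 in 6 and the DEX effect above 0 in 10 and none called against saline. The lowest was Hmox1, a heme-degrading enzyme that heat also induces, at -2.12 ± 0.73 with ACTH (adjusted p = 0.33, limma), where rat 1 changed by -3.55 and rat 5 by 0.20. Saline rat 2 rose by 1.43, while saline rats 4, 6 and 8 changed by 0.03, 0.37 and -0.05, so part of this effect is the rise in rat 2. St13 and Stip1, which link Hsp70 and Hsp90, had ACTH effects of -0.54 and -0.30 and DEX effects of 0.30 and 0.30. Of the ER list 24 genes were tested, with the ACTH effect above 0 in 9 and the DEX effect above 0 in 17, again with none called against saline. Calu, a calcium-binding protein of the secretory pathway, fell in the right kidney of the ACTH rats by 0.53 ± 0.13 (adjusted p = 0.0498, limma). It was the only 1 of the 24 called there, where 3.57% of all tested probe sets passed. Against saline its ACTH effect was -0.40 ± 0.16 (adjusted p = 0.443, limma). Serp1, a stress-induced protein of the translocon, had a DEX effect of 0.53 ± 0.24 (adjusted p = 0.999, limma). Its changes were 0.33 and -0.01 in the DEX rats and -0.63 to -0.23 in the saline rats, which all fell.

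Marker genes of other cells were read beside these values. Of 11 listed fat genes 9 were tested, and all 9 had an ACTH effect above 0 (median 1.00) and 8 of 9 a DEX effect below 0 (median -0.96), of which none passed, while 3 passed for ACTH against DEX. By rat, their median change with ACTH was 1.498 (rat 1) and 0.21 (rat 5). With DEX it came to -0.79 and -0.92, and the saline rats spanned -0.75 to 0.38, so that ACTH rat 5 lay among them. The fat score lay at 6.89 to 8.28 in left kidneys, at 9.86 and 7.53 in the right kidneys with ACTH, at 6.86 and 7.03 with DEX and at 6.80 to 7.32 with saline. With this score as a covariate, the Dnaja1 difference between ACTH and DEX was -1.58 (adjusted p = 0.0516, limma), the median ACTH effect of the ER genes was -0.054 and their median DEX effect 0.13. The 4 thick ascending limb genes all had an ACTH effect below 0 (median -0.26) and a DEX effect above 0 (median 0.31), with scores of 9.18 and 9.34 in the right kidneys with ACTH, 9.38 and 9.96 with DEX and 9.16 to 9.95 with saline. The 5 collecting duct genes had a median ACTH effect of 0.22, but their median change was -0.32 in ACTH rat 1 and 0.65 in ACTH rat 5, in opposite directions. The 4 red cell genes had a median DEX effect of -0.60, with median changes of -0.30 and -0.68 in the DEX rats and -0.50 to 0.37 in the saline rats.

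The 7 proximal tubule genes had a median ACTH effect of -0.14 (4 lower, 3 higher, 1 of them called lower) and a median DEX effect of 0.080 (5 higher, 2 lower), the signs that most members had. Their score in the right kidneys was 10.74 and 10.91 with ACTH, 11.06 and 11.11 with DEX and 10.97 to 11.09 with saline. The 3 leukocyte genes had a median ACTH effect of -0.35 (2 lower, 1 higher, none called), and all 3 had a lower right kidney in the ACTH rats, 2 of them at an unadjusted p under 0.05 and none called (limma). Their score in the right kidneys was 8.24 and 8.86 with ACTH, 8.81 and 8.84 with DEX and 8.65 to 8.94 with saline. The 3 endothelial genes had medians of -0.12 and -0.16 for ACTH and DEX, the 2 podocyte genes 0.0075 and -0.16, and the 3 adrenal cortex genes -0.026 and 0.054. The fat score moved in part with treatment, so the fit with it as a covariate cannot tell its part from that of the treatment. The part of any of these marker genes in the members' values was not tested.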

How the data were processed

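The authors deposited 1 value per probe set and array in a series matrix, as intensity on a linear scale (5.18 to 12664); how they were normalized and by what software is not stated in any label or header read here. Per the labels' protocols, total RNA was extracted, column-purified and turned into biotinylated cRNA. Precision is limited by the number of arrays, 16 from 8 rats.

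After 59 control probe sets were left out, 8740 remained; 7006 carry 1 gene symbol in the platform annotation, 308 several and 1426 none. Values were taken as log2(value + 16), and the 3496 probe sets (40%) with the lowest mean were left out. This filter was first computed on the mean of linear values and then changed to the mean of log2 values after the counts of both were seen, to match an earlier treatment of these data; the first form is given as an alternative (22 and 25 in place of 26 and 30 probe sets called for ACTH against saline and against DEX). limma 3.58.1 in R 4.3.3 fitted a term for each rat, right kidney, and right kidney by ACTH and by DEX (lmFit, eBayes with an intensity trend; 5 residual and 7.345 prior degrees of freedom; two-sided). Calls are adjusted p under 0.05, Benjamini-Hochberg over 5244. The fit was tested on simulated data. The rat pairs the kidneys by design. Left and right deviations from the group means correlated at 0.623 to 0.763. The ACTH group holds only rats 1 and 5, whose deviations mirror each other and give the same value, 0.646. The same holds for DEX rats 3 and 7, at 0.757. Every treatment holds rats of both clusters, so these correlations cannot tell a shared rat from a shared cluster. No support for the pairing is drawn from them.

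The rule names every member gene; values in every array are given for core chaperones, for called members and for the 3 members of each compartment with the lowest p in each effect. Dnaja2 and Hspb6 beyond these were chosen after their values were seen. The members, marker and pathway lists were chosen with earlier results of these data known. Promoters are RefSeq's, matched by symbol; Dnaja2, Hspb2, Pdia3 and Pdia6 had none, and the promoter of 1 other member is not reported here. Protein sequences were not used here.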

Additional observations from a re-analysis of the deposited data

Results flagged for a closer look

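Signals of all 58 tested member probe sets were checked in the 8 left kidneys and in the 4 saline right kidneys, 116 groups in all, by Dixon's gap; 4 were flagged, where chance flags about 1 in 20. The check was first made on the probe sets described array by array and then widened to all tested members. A second probe set of Pdia3 read 1436 in the right kidney of saline rat 8 and 44.9 to 54.9 in the right kidneys of the other saline rats. The brightest probe set of Dnaja2 read 230.2 in the same kidney, against 386 to 410.5. A second probe set of Hsp90b1 read 494 in the left kidney of rat 1, against 324 to 399 in the other left kidneys. A second probe set of Hspa9 read 201 in the left kidney of rat 4, against 59.3 to 121. The less bright probe set of Dnaja1 differed between the ACTH and DEX rats by -1.10 (limma, 2 rats against 2), the test of that difference being the one given above.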

How the results depend on the processing

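Against the reported counts of called members (0 for ACTH against saline, 0 for DEX against saline, 1 for ACTH against DEX and 2 for right against left in ACTH rats), leaving out each rat in turn gave 0 to 1, 0 to 0, 0 to 5 and 0 to 7, with the highest counts without rat 1. The fit without rat 1 leaves 1 ACTH rat, so these highest counts are not read as a result about the members. The medians without each rat in turn ran from -0.19 to -0.0082 (cytosolic, ACTH), -0.28 to -0.063 (ER, ACTH), 0.0073 to 0.22 (cytosolic, DEX) and 0.041 to 0.38 (ER, DEX). Of 38 effects against saline, for 17 genes at their brightest probe set and for the second probe sets of Dnaja1 and Hspa5, 30 moved by over 1.5 times or turned sign without 1 rat, and 16 turned sign. Genes whose sign turned ran, for ACTH against saline, from -0.32 to 0.058 (Calr), -0.16 to 0.21 (Dnaja3), -0.39 to 0.40 (Hsp90b1), -0.45 to 0.53 (Hspa9), -0.056 to 0.11 (Hspe1), -0.38 to 0.34 (Pdia3), -0.16 to 0.011 (Ddit3), -0.41 to 0.25 (Hspd1) and -0.070 to 0.29 (Dnajb1). For DEX against saline they ran from -0.13 to 0.065 (Calr), -0.15 to 0.74 (Canx), -0.072 to 0.36 (Dnaja3), -0.047 to 0.34 (Hspa9), -0.076 to 0.40 (Hspe1), -0.0023 to 0.41 (Pdia4) and -0.0075 to 0.23 (Hspd1).

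Without the replicate block for each rat, 0 members were called for ACTH against DEX and 0 within ACTH rats. With arrays median-centred, 1 was called within ACTH rats, and Pdia3 with ACTH was 0.0052. After quantile normalization Hsp90b1 and Hspe1 with ACTH were -0.025 and -0.0065. With right kidneys only, 0 were called for ACTH against DEX, the DEX medians were 0.12 (ER) and 0.065 (cytosolic), and signs turned for Hsp90b1 (-0.20), Hspa9 (-0.013), Hspd1 (0.017) and Ddit3 (0.030) with ACTH and for Dnaja3 (-0.13) and Hspa9 (-0.020) with DEX. With the fat score as a covariate, 0 were called for ACTH against DEX, the medians were -0.054 (ER, ACTH) and 0.064 (cytosolic, DEX), and signs turned for Ddit3 (0.066), Dnaja3 (-0.22), Hsp90b1 (-0.44), Hspa9 (-0.38) and Hspe1 (-0.17) with ACTH and for Calr (0.0038) and Pdia4 (-0.030) with DEX. The mean over the probe sets of a gene moved the cytosolic ACTH median to -0.036.

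With rats 1 to 4 only (1 residual degree of freedom), 8 members were called for ACTH against DEX, 2 for DEX, and 1, 4 and 13 within saline, ACTH and DEX rats. This fit holds 1 ACTH rat and 1 DEX rat, so neither treatment has a replicate. The share of all probe sets called in it is not given here. Its member counts therefore cannot show a change of the members and are not read as a result. The medians were -0.29 (ER, ACTH), 0.33 (ER, DEX) and 0.068 (cytosolic, DEX), and signs turned for Dnajb1 (-0.050), Hspd1 (0.074) and Pdia3 (0.21) with ACTH and Calr (0.050) with DEX. With rats 5 to 8 only, the same limit held. The medians were -0.25 (ER, ACTH), 0.0081 (ER, DEX) and -0.041 (cytosolic, DEX), and signs turned for Calr (0.073), Dnaja3 (-0.13), Hsp90b1 (-0.34), Hspa5 (0.0049) and Hspa9 (-0.34) with ACTH and Dnaja3 (-0.041) and Pdia4 (-0.016) with DEX. The causes of these changes were not tested. The pseudocount (1 or 64), the low-value filter (none, the lowest 60%, or on linear means, which was added after seeing the data) and the variance prior without a trend left every count of called members as reported.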
